A study of Mus musculus with 9 samples.

Results

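The insulin-like growth factor (IGF) system was followed through the embryonic forebrain of mice with an intact or a heterozygously deleted *Npas3*. Its 10 members were taken from the deposited table by gene symbol: the ligands *Igf1* and *Igf2*, the receptors *Igf1r* and *Insr*, the clearance receptor *Igf2r*, and the binding proteins *Igfbp2*, *Igfbp3*, *Igfbp4*, *Igfbp5* and *Igfbp7*. They are 10 of the 55401 genes in the table, and all 10 were among the 17818 genes that passed the filter on low counts. The WT group held 5 *Npas3*+/+ and the HET group 4 *Npas3*+/- female embryos of the C57BL/6J background, collected at embryonic day (E) 16 to E17, and none received a treatment. *Npas3*, which encodes a neuronal PAS domain transcription factor, was deleted from the germ line, so every cell of a HET embryo carried the deletion. Poly(A) RNA of bulk forebrain was sequenced. The labels name astrocytes as the cell type, but the authors describe bulk forebrain, and the samples are described here as whole tissue. In these embryos 7 neuronal markers summed to 6018 to 7022 CPM (counts scaled to the size of each library, with edgeR's TMM factors). For 7 markers of astroglia and radial glia the sum was 1104 to 1552 CPM. Such sums are not scaled by gene length and do not measure the share of each cell type.

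IGF1 and IGF2 are secreted growth factors that act through the receptor tyrosine kinase IGF1R, and IGF2 also acts through an isoform of the insulin receptor. The receptors pass the signal through insulin receptor substrate adaptors to phosphatidylinositol 3-kinase, AKT and mTOR. IGF2R carries IGF2 to lysosomes and does not signal as a kinase, and the binding proteins hold the ligands outside the cell and can lower or prolong their action. In the developing brain IGF signalling sustains the growth and survival of progenitors and neurons. IGF2 is also made by the choroid plexus and the leptomeninges, from where it reaches the cerebrospinal fluid.

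NPAS3 belongs to the basic helix-loop-helix PAS family, and many helix-loop-helix factors bind E-boxes, so the promoters were searched for the letters CANNTG and, within these matches, for CACGTG; both read the same on either strand. RefSeq promoter windows on GRCm38.p6, covering the 250 bases before each start site, were matched for 9 of the 10 members (all but *Insr*), with 13 windows in all because some genes have several start sites. CANNTG was present in 8 of the 13 windows (61.5%), against 66.2% of all 32841 windows. CACGTG was present in 2 of the 13, against 6.02% of all windows. The stretches shown are the E-box of *Igf1*, the member whose WT and HET values did not overlap, and the 3 CACGTG matches among the members, with the E-box in capitals. Each is written 5′ to 3′ on the strand of its gene.
Igf1, chr10:87860942-87860971, plus strand: gggaagagaggtCAGCTGcctagagcgatt
Igf2r, chr17:12769737-12769766, minus strand: gaacgaggacgtCACGTGagcaggaggcgg
Igf2r, chr17:12769696-12769725, minus strand: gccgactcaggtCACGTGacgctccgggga
Igfbp2, chr1:72824326-72824355, plus strand: cgtgtgcacaagCACGTGccctcacgcaag
The capitals of *Igf1* lie 157 bases before its start, those of *Igf2r* 48 and 7 bases, and those of *Igfbp2* 142 bases. The *Igf2r* window held 4 CANNTG matches in all; 31.8% of all windows held 2 or more. The *Igf1* stretch also falls within an *Igf1* exon of GENCODE release M21, because other transcripts of the gene start farther upstream. A match describes the letters in the window and does not show that a factor binds there.

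Total counts were 42640218 to 62830060 per embryo, with a median of 45172472 in WT and 47699083 in HET. At this depth 3 counts correspond to 0.0473 to 0.0722 CPM, which limits counting error only. *Npas3* itself was at 35.4, 29.7, 38.3, 37.0 and 40.8 CPM in WT 15, 16, 41, 43 and 5, and at 27.9, 28.2, 34.1 and 27.8 CPM in HET 5, 6, 7 and 24 (log2 fold change −0.30, SE 0.10; edgeR adjusted p = 0.877, unadjusted p = 0.0134). *Ttr*, the transthyretin gene of the choroid plexus epithelium, was very uneven: 2536, 2127 and 2631 CPM in WT 15, 16 and 41, 467 CPM in HET 24, and 0.770 to 11.7 CPM in WT 5, WT 43 and HET 5, 6 and 7. *Ttr* was therefore above 100 CPM in 3 of 5 WT and in 1 of 4 HET embryos, and genotype and *Ttr* level are partly confounded. The 8 choroid plexus markers, *Ttr* among them, summed to 17.97 to 2884 CPM in WT and 27.48 to 529.5 CPM in HET. *Ttr* made up most of that sum in WT 15, 16 and 41 and HET 24, and *Otx2* was its largest part in the other 5 embryos. The remaining choroid plexus markers were each highest in WT 15, 16 and 41 and HET 24. The 9 leptomeningeal fibroblast markers summed to 61.75 to 79.0 CPM in WT 15, 16 and 41 and to 35.37 CPM in HET 24. They summed to 16.63 to 32.92 CPM in the other 5 embryos. *Ttr* itself, 1 of the 8 choroid plexus markers, was left out of the slope tests. In edgeR's test 6 of those 8 and 4 of the 9 leptomeningeal markers rose with *Ttr*. No gene of the endothelial, mural, microglial, blood, astroglial or neuronal lists did. DESeq2 called 6 of 8 and 6 of 9, 1 endothelial, 1 mural and 2 blood markers as rising. In the other direction, 1 blood marker fell with *Ttr* by edgeR, and 1 blood and 1 astroglial marker by DESeq2. WT 5, the embryo with the least *Ttr*, stood apart in other genes: the embryonic globin *Hbb-y* was at 12.1 CPM against 0.889 to 2.95 CPM elsewhere, the progenitor gene *Hes5* at 46.6 against 12.98 to 16.3 CPM, and the adult globin *Hba-a1* at 42.6 against 61.1 to 110 CPM. Across embryos the sums were 95.85 to 134.4 CPM for the mural, 60.7 to 78.49 CPM for the microglial and 219.6 to 567.9 CPM for the blood markers. None of the marker lists had a defining gene at 0 in every embryo. Because the tissue is bulk, fewer cells of a type and less RNA per cell cannot be told apart. Nothing in the sources used here assigns the embryos to litters, so the p-values measure the spread between these 9 embryos.

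The question of the design was which genes depend on a full dose of *Npas3*. Among the 10 members *Igf1*, a secreted ligand, was the only one in which all 4 HET embryos were below all 5 WT embryos, at a mean of 1.77 against 4.95 CPM. Markers of several cell types also differed between the groups before adjustment. The choroid plexus markers summed to 39.28 and 17.97 CPM in WT 5 and WT 43, beside 27.48 to 41.54 CPM in HET 5, 6 and 7. *Otx2* was the largest part of each of these sums, so they do not show equal amounts of choroid plexus. *Ttr* itself was at 0.770 and 2.14 CPM in WT 5 and WT 43, and at 2.47 to 11.7 CPM in HET 5, 6 and 7. At an unadjusted p of edgeR under 0.05, 6 of 8 choroid plexus, 2 of 7 astroglial, 2 of 8 endothelial and 1 of 9 leptomeningeal markers were lower in HET, 1 leptomeningeal marker was higher, and none of the mural, microglial, blood or neuronal markers was either; no marker passed an adjusted p of 0.05 with edgeR, DESeq2 or limma-voom. *Aqp4*, the astroglial water channel, was at 1.17 to 2.02 CPM in WT and 0.163 to 1.08 CPM in HET, also without overlap. It was chosen after its values were seen, and it was the only one of the 7 astroglial markers without overlap. The WT and HET values of *Slc1a3*, *Aldh1l1*, *Gfap*, *Hes5*, *Sox9* and *Vim* overlapped. The part of these marker differences in the members' values was not tested beyond the *Ttr*, choroid plexus and leptomeningeal covariates. None of the 10 passed an adjusted p of 0.05 in edgeR's quasi-likelihood test, against 0.112% of all genes that were lower and 0.0281% that were higher in HET by that test. Groups that did not overlap were found for 1 of 10 members with HET lower and 0 of 10 with HET higher, against 1.07% and 0.786% of all genes. The median log2 fold change of the members was −0.10, with 7 of 10 below 0, beside −0.005 with 9179 of 17818 below 0 over all genes tested. At an unadjusted p under 0.05 the count was 1 of the members, against 965 of 17818 genes.

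**Figure D1:**
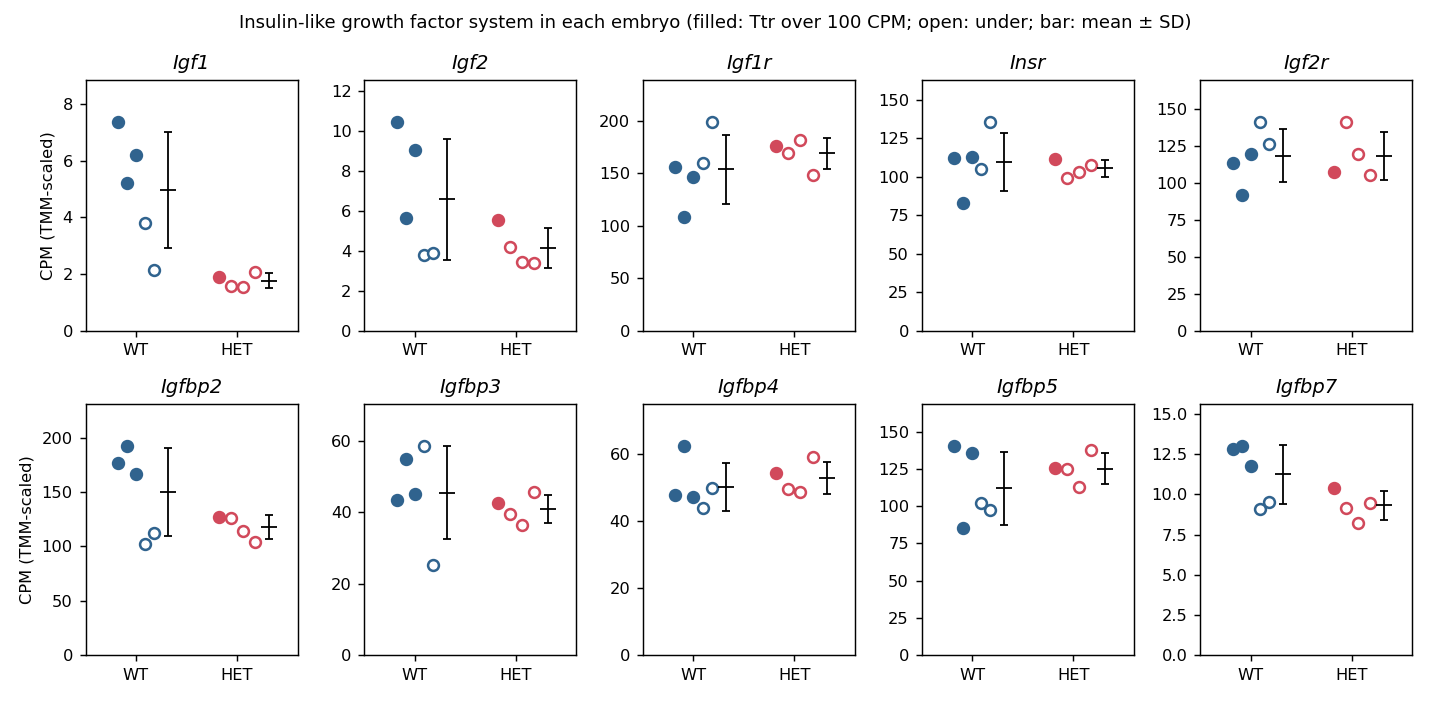
TMM-scaled CPM of each member (axes start at 0) in the 5 WT and 4 HET embryos. Points are embryos, filled where *Ttr* was over 100 CPM and open where it was under, and the black bar is the group mean ± SD. *Igf1* is the only panel in which all HET points, 1.54 to 2.09 CPM, sit below all WT points, 2.14 to 7.39 CPM.

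*Igf1* (ENSMUSG00000020053) lies on chromosome 10 of GRCm38 from 87858265 to 87937042, plus strand. It was at 2.14, 7.39, 5.22, 6.21 and 3.80 CPM in WT 5, 15, 16, 41 and 43. In HET 5, 6, 7 and 24 it was at 1.56, 1.54, 2.09 and 1.88 CPM. The WT values spread widely, from just above the highest HET embryo in WT 5 to the highest in WT 15, and the HET values lay close together. The means were 4.95 ± 2.05 CPM (SD, n = 5) and 1.77 ± 0.266 CPM (SD, n = 4), a log2 fold change of −1.49 (SE 0.31). The unadjusted p of edgeR was 0.000569, and its adjusted p was 0.195. DESeq2 gave an adjusted p of 0.000469 for the same comparison, and *Igf1* was the 1 member of 10 it called, beside 0.348% of all genes called lower by DESeq2. On the same embryos limma-voom gave a log2 fold change of −1.39 and an adjusted p of 0.476. With no filter on low counts edgeR's adjusted p was 0.0496, and without WT 5, the WT embryo with the lowest *Igf1*, it was 0.0136. Of the 9 fits with an embryo left out that was the only 1 to pass, and edgeR's adjusted p reached 0.691 among them. The 3 highest levels of *Igf1* were those of the *Ttr*-rich embryos WT 15, 16 and 41. With log10 *Ttr* as a covariate the log2 fold change was −1.13 (SE 0.20; edgeR adjusted p = 0.0785), and with the choroid plexus markers as a covariate −1.03 (SE 0.20; edgeR adjusted p = 0.123). In the embryos with *Ttr* under 100 CPM alone, 2 WT and 3 HET, it was −0.78 (SE 0.29; edgeR unadjusted p = 0.0308, adjusted p = 0.999). With the leptomeningeal markers as a covariate, a fit added after the data were seen, it was −1.33 (edgeR adjusted p = 0.0346).

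*Igf2* (ENSMUSG00000048583; chromosome 7, 142650766 to 142666816, minus strand) was at 3.90, 10.5, 5.66, 9.01 and 3.78 CPM in WT 5, 15, 16, 41 and 43, and at 4.16, 3.45, 3.37 and 5.53 CPM in HET 5, 6, 7 and 24. The groups overlapped, and HET 24, which holds the most *Ttr* of its group, also held the most *Igf2*. The means were 6.56 ± 3.04 CPM (SD, n = 5) for the WT embryos and 4.13 ± 1.0 CPM (SD, n = 4) for the HET embryos (log2 fold change −0.67, SE 0.32; edgeR adjusted p = 0.911). It was −0.31 (SE 0.18) with log10 *Ttr* as a covariate, −0.19 (SE 0.18) with the choroid plexus markers and −0.07 (SE 0.18) in the embryos with *Ttr* under 100 CPM alone. The *Igf2* level has a limit, since 62.8% of its exonic bases lie within exons of *Gm49394*, a gene annotated on the same strand that itself had 0 to 2 counts in each embryo. How reads shared by both genes were assigned is not given in the sources used here, so the level of *Igf2* may be understated. Its fold change and its slope on *Ttr* may likewise rest on only the exonic bases it does not share.

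*Igf1r* (ENSMUSG00000005533; chromosome 7, 67952827 to 68233668, plus strand) encodes the main receptor of both ligands. It was at 199, 156, 108, 146 and 160 CPM in WT 5, 15, 16, 41 and 43 and at 170, 182, 148 and 176 CPM in HET 5, 6, 7 and 24. The HET range lay inside the WT range, which ran from WT 16 to WT 5 (log2 fold change 0.14, SE 0.14; edgeR adjusted p = 0.919). The fold change was 0.03 without WT 16, and its sign turned, to −0.11 (SE 0.13), in the embryos with *Ttr* under 100 CPM alone. *Insr* (ENSMUSG00000005534; chromosome 8, 3122061 to 3279617, minus strand), the insulin receptor, had 136, 112, 82.8, 113 and 105 CPM in the same order of WT and 99.2, 103, 108 and 112 CPM in HET (log2 fold change −0.06, SE 0.12; edgeR adjusted p = 0.945). Its log2 fold change was −0.22 (SE 0.12) at *Ttr* under 100 CPM and −0.14 without WT 16, and 0.03 without WT 5. WT 16 was the lowest and WT 5 the highest embryo for both receptors. *Igf2r* (ENSMUSG00000023830; chromosome 17, 12682406 to 12769664, minus strand), the clearance receptor of IGF2, had 126, 114, 91.9, 119 and 142 CPM in WT and 141, 120, 105 and 108 CPM in HET. Its means were within 1 SD of each other, at 119 ± 18.2 CPM (SD, n = 5) and 118 ± 16.4 CPM (SD, n = 4) (edgeR adjusted p = 0.998).

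None of the 5 binding proteins passed the test; *Igfbp2*, *Igfbp7* and *Igfbp3* had lower and *Igfbp4* and *Igfbp5* higher means in HET than in WT. *Igfbp2* (ENSMUSG00000039323; chromosome 1, 72824503 to 72852474, plus strand), a binding protein abundant in embryonic neuroepithelium and choroid plexus, was at 112, 177, 192, 167 and 102 CPM in WT 5, 15, 16, 41 and 43. It was at 126, 114, 104 and 127 CPM in HET 5, 6, 7 and 24. The WT embryos formed a high set of 3, the *Ttr*-rich ones, and a low pair at the level of the HET embryos (log2 fold change −0.35, SE 0.18; edgeR adjusted p = 0.911). With log10 *Ttr* as a covariate it was −0.15 (SE 0.10) and with the choroid plexus markers −0.08 (SE 0.10), and in the embryos with *Ttr* under 100 CPM alone the sign turned, to 0.10 (SE 0.10). *Igfbp7* (ENSMUSG00000036256; chromosome 5, 77349240 to 77408041, minus strand), a related secreted protein with low affinity for IGFs, was at 9.50, 12.9, 13.03, 11.8 and 9.12 CPM in WT and 9.18, 8.22, 9.47 and 10.4 CPM in HET (log2 fold change −0.27, SE 0.13; edgeR adjusted p = 0.911). Its log2 fold change was −0.15 (SE 0.09) with log10 *Ttr* as a covariate, −0.11 (SE 0.10) with the choroid plexus markers and −0.06 (SE 0.14) at *Ttr* under 100 CPM. It showed the same division, with WT 5 and WT 43 among the HET embryos. The 8 endothelial markers summed to 132.9 to 171.7 CPM in WT and to 126.1 to 139.4 CPM in HET, and their part in the *Igfbp7* values was not tested. In its exons 7.03% of bases are shared with *Polr2b* on the opposite strand.

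*Igfbp3* (ENSMUSG00000020427; chromosome 11, 7206086 to 7213923, minus strand), the main IGF carrier of serum, had 25.2, 43.3, 55.0, 45.1 and 58.6 CPM in WT and 39.5, 36.4, 45.5 and 42.6 CPM in HET. Here the 2 *Ttr*-poor WT embryos were at opposite ends of the range (log2 fold change −0.15, SE 0.20; edgeR adjusted p = 0.935). *Igfbp4* (ENSMUSG00000017493; chromosome 11, 99041244 to 99054392, plus strand), which the protease PAPPA cleaves to free the ligand, had 49.8, 47.7, 62.3, 46.9 and 43.8 CPM in WT and 49.5, 48.5, 59.0 and 54.1 CPM in HET (log2 fold change 0.07, SE 0.10; edgeR adjusted p = 0.937). *Igfbp5* (ENSMUSG00000026185; chromosome 1, 72857932 to 72874884, minus strand) is the neighbour of *Igfbp2*, and the genes point towards each other. It had 97.3, 141, 85.4, 136 and 102 CPM in WT and 125, 113, 138 and 126 CPM in HET (log2 fold change 0.16, SE 0.14; edgeR adjusted p = 0.912). *Igfbp5* moved to 0.33 (SE 0.10) in the embryos with *Ttr* under 100 CPM alone, where edgeR's adjusted p was 0.999. Its HET values and those of *Igfbp4* were all within the WT range.

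**Figure D2:**
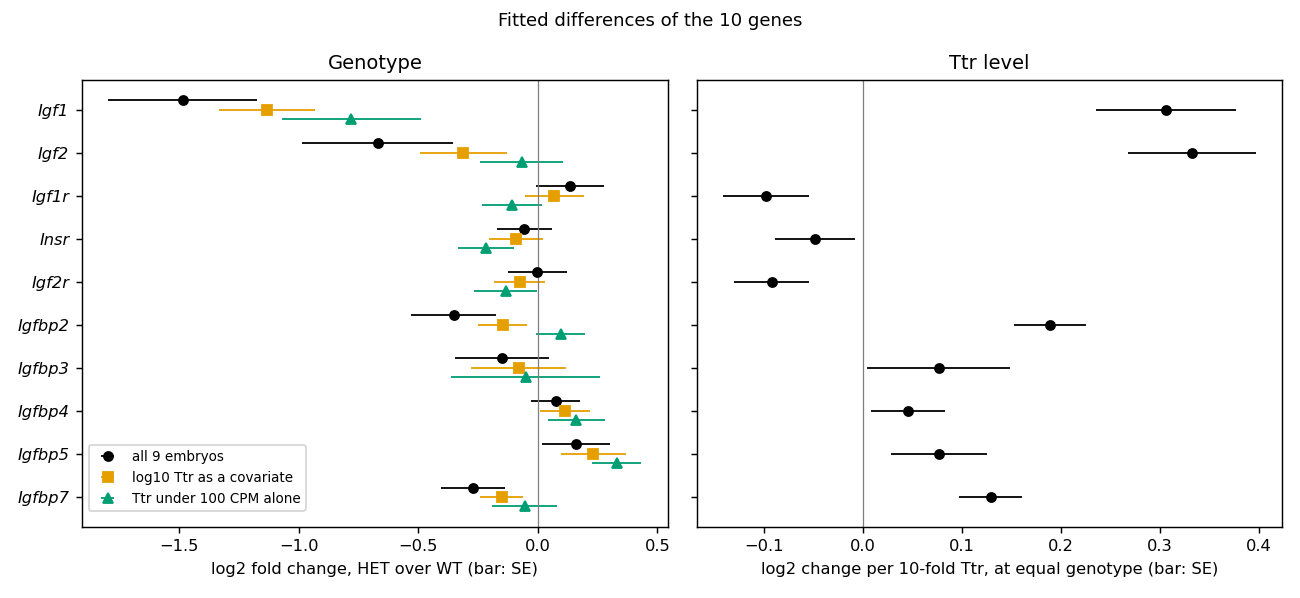
Left, log2 fold change of HET over WT for each member, from edgeR over all 9 embryos (black), with log10 *Ttr* as a covariate (orange) and in the embryos with *Ttr* under 100 CPM alone (green). Right, log2 change per 10-fold rise in *Ttr* at equal genotype, over 9 embryos. Bars are the SE. *Igf1* lies farthest below 0 on the left, and *Igf2*, *Igf1*, *Igfbp2* and *Igfbp7* lie farthest above 0 on the right.

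The coefficient of variation over embryos was larger in WT than in HET for 10 of 10 members, against 59.7% of the 17818 genes. It was 46.3% in WT and 24.3% in HET for *Igf2*, 41.4% and 15.1% for *Igf1*, and 26.9% and 9.22% for *Igfbp2*. For the receptors it was 21.3% and 8.67% (*Igf1r*), 17.3% and 5.14% (*Insr*) and 15.4% and 13.9% (*Igf2r*). For the other binding proteins it was 14.3% to 28.6% in WT and 8.31% to 9.74% in HET. The WT group held 3 *Ttr*-rich and 2 *Ttr*-poor embryos and the HET group 1 and 3, and the part of this mix in the spread was not tested.

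The second comparison asked how each member went with *Ttr* at equal genotype, as a slope in log2 units for each 10-fold rise in *Ttr* CPM. *Igf2* and *Igfbp2* rose with *Ttr*, and no member fell by edgeR's or DESeq2's adjusted p. The 2 of 10 stand against 1.96% of genes that rose and 0.241% that fell by edgeR's adjusted p. The median slope of the members was 0.08, beside 0.002 over all genes. The slope was 0.33 for *Igf2* (SE 0.06; edgeR adjusted p = 0.0227) and 0.19 for *Igfbp2* (SE 0.04; edgeR adjusted p = 0.0215). Those calls rested on the WT embryos at either end of the *Ttr* range. Without WT 5, WT 15, WT 41 or WT 43 edgeR's adjusted p was 0.172, 0.0698, 0.0699 and 0.0827 for *Igf2* and 0.178, 0.0799, 0.0513 and 0.0937 for *Igfbp2*, and for *Igf2* the call was also lost without HET 24 (edgeR adjusted p = 0.0524). Within the 5 WT embryos alone the slope of *Igf2* was 0.34 (edgeR adjusted p = 0.0948) and that of *Igfbp2* 0.22 (edgeR adjusted p = 0.0263).

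*Igf1* and *Igfbp7* had slopes of 0.31 (SE 0.07; edgeR adjusted p = 0.0541) and 0.13 (SE 0.03; edgeR adjusted p = 0.0726), just outside the threshold. DESeq2 called 4 of 10 members as rising, *Igf2*, *Igfbp2*, *Igf1* and *Igfbp7*, beside 3.1% of all genes, with adjusted p of 6.68e-05, 0.000137, 0.00157 and 0.00721. Of the receptors, *Igf1r* and *Igf2r* had slopes of −0.10 (SE 0.04) and −0.09 (SE 0.04), with edgeR adjusted p of 0.323 and 0.275. *Insr* (−0.05), *Igfbp3* (0.08), *Igfbp4* (0.05) and *Igfbp5* (0.08) had edgeR adjusted p of 0.506 to 0.682. Leptomeningeal as well as choroid plexus markers move with *Ttr* in these embryos, and which of the tissues carries the slopes was not tested.

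**Figure D3:**
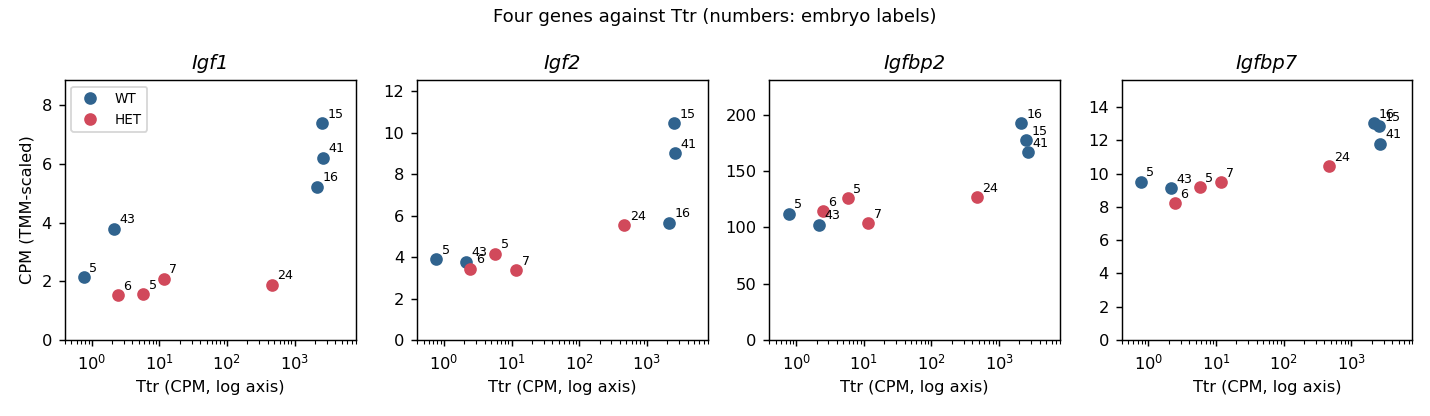
TMM-scaled CPM of *Igf1*, *Igf2*, *Igfbp2* and *Igfbp7* (axes start at 0) against *Ttr* CPM (log axis); WT embryos are blue, HET embryos red, and numbers are the embryo labels. The 3 WT embryos with *Ttr* at 2127 CPM or more hold the highest *Igf1*, *Igf2*, *Igfbp2* and *Igfbp7*, at 5.22 CPM or more for *Igf1* and 167 CPM or more for *Igfbp2*.

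Levels can be compared between genes only per length, here as CPM per kilobase of exon (GENCODE release M21) in the WT embryos. *Igfbp2* was highest, at a mean of 81.3 and a range of 55.4 to 104. *Igfbp5* (mean 18.7; 14.2 to 23.4), *Igfbp3* (14.5; 8.05 to 18.7), *Igf2r* (12.7; 9.88 to 15.2) and *Igfbp4* (11.4; 9.92 to 14.1) followed on the same scale. *Igfbp7* (9.31; 7.54 to 10.8), *Igf1r* (9.16; 6.43 to 11.9) and *Insr* (7.97; 6.03 to 9.87) came next. From *Igfbp5* down to *Insr* each range overlapped that of its neighbour in the order. The genes were measured in the same embryos, so overlap of ranges does not show equal levels. *Igfbp4* was above *Igfbp7* and *Igf1r* above *Insr* within every WT embryo, while the order of the other neighbours varied between embryos. Ranges farther apart were in part separate: all *Igfbp5* values lay above those of *Igfbp4*, *Igfbp7*, *Igf1r* and *Insr*. *Igf1* was lowest, at a mean of 0.500 and a range of 0.216 to 0.746, separate from all 8 of these genes. *Igf2* was listed at 1.15 (0.660 to 1.83), with no place in the order because of the exons it shares.

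The genes whose log2 CPM went most closely with a member over the 9 embryos are given by Pearson's r for all members but *Igfbp4*. These are descriptions over 9 points that share depth and the same 4 *Ttr*-rich embryos, and each list is the 5 highest of the tested genes. For *Igf1* they were *Slc38a3*, *4933406P04Rik*, *Cp*, *Maged2* and *Slc40a1* (r = 0.955 to 0.965). *Igf2* was nearest to *Lipa*, *Llgl2*, *Myof*, *Strip2* and *Dnah9* (r = 0.960 to 0.983), and *Igfbp2* to *Car14*, *Lox*, *Wfdc2*, *Mia* and *Gpc3* (r = 0.972 to 0.980). *Igfbp7* was nearest to *Serpinb1b*, *Plvap*, *Cavin1*, *Wdr86* and *Aebp1* (r = 0.959 to 0.975). The receptors went with other genes: *Igf1r* with *Rbm33*, *Wnk1*, *Gm45854*, *Ssh2* and *Ep400* (r = 0.961 to 0.990), *Igf2r* with *Zfp507*, *Notch2*, *Tubgcp4*, *Lig3* and *Lamc1* (r = 0.976 to 0.986), and *Insr* with *L3mbtl3*, *Pgbd1*, *Usp54*, *Ino80* and *Gm42658* (r = 0.933 to 0.940). For *Igfbp3* they were *Kcnu1*, *Ssbp2*, *Ldb2*, *Cd3eap* and *Ndrg1* (r = 0.946 to 0.977), and for *Igfbp5* *Smim17*, *Vinac1*, *Cdr1os*, *Tnfrsf14* and *Zmiz1os1* (r = 0.943 to 0.965). Among the members themselves the largest positive r joined *Igf1*, *Igf2*, *Igfbp2* and *Igfbp7*, from 0.741 (*Igf1* with *Igfbp2*) to 0.916 (*Igfbp2* with *Igfbp7*), and *Igf1r* with *Insr* (0.771). The largest negative r were those of *Igf2r* with *Igfbp4* (−0.834) and of *Igfbp3* with *Igf1r* (−0.730) and *Insr* (−0.707). Between ligands and signalling receptors r was −0.606 for *Igf1* and −0.335 for *Igf2* with *Igf1r*, and −0.149 and 0.0216 with *Insr*.

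A list of 45 further genes of the pathway was read from the same fit, and 40 of them passed the filter on low counts. None passed an adjusted p of 0.05 in either direction in HET against WT with edgeR, DESeq2 or limma-voom. Their median log2 fold change was 0.07, with 11 of 40 below 0, beside −0.005 with 9179 of 17818 below 0 over all genes tested. Whether the list differs from the members or from all genes was not tested. At an unadjusted p of edgeR under 0.05, 1 of the 40 was lower (*H19*) and 1 higher (*Htra1*), against 965 of 17818 genes in either direction, a similar share. The 6 proteases and inhibitors that release or guard the ligands had a median of 0.21 with 1 below 0, the 7 adaptors 0.16 with 1 below 0, the 20 intracellular signalling genes 0.03 with 7 below 0, and the 5 *Igf2* mRNA-binding proteins and imprinted partners 0.06 with 2 below 0.

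*H19*, the imprinted noncoding RNA next to *Igf2*, was at 33.2, 53.9, 49.1, 55.8 and 25.9 CPM in WT 5, 15, 16, 41 and 43 and at 21.1, 25.6, 30.4 and 31.0 CPM in HET 5, 6, 7 and 24. As with *Igf2*, its 3 highest embryos were the *Ttr*-rich WT ones (log2 fold change −0.69, SE 0.22; edgeR adjusted p = 0.788). It was the 1 gene of the 40 that rose with *Ttr* by the test, with a slope of 0.23 (SE 0.04; edgeR adjusted p = 0.0213), and none fell. Over all genes 1.96% rose and 0.241% fell by edgeR's adjusted p. DESeq2 called 8 of the list as falling with *Ttr*, beside 1.88% of all genes, where edgeR's adjusted p was 0.077 to 0.173. Without WT 5 DESeq2 called 0 of the list as falling, and 16 instead of 328 of all genes. The slopes of all 8 stayed below 0 in that fit. Those of *Htra1* (−0.14) and *Irs1* (−0.18) were slightly steeper than with WT 5, and the rest were shallower. No other embryo was left out of the DESeq2 fit. The 8 included all 3 *Igf2* mRNA-binding proteins, which hold *Igf2* and other transcripts in the cytoplasm of growing tissues. *Igf2bp1* (slope −0.19), *Igf2bp2* (−0.16) and *Igf2bp3* (−0.15) had DESeq2 adjusted p of 0.00773, 0.0211 and 0.0118. *Igf2bp3* was at 44.2, 25.9, 24.6, 26.7 and 32.9 CPM in WT 5, 15, 16, 41 and 43 and at 24.9 to 29.9 CPM in HET, so its highest embryos were the *Ttr*-poor WT pair, WT 5 above all. Without WT 5 the slopes of the 3 were −0.15, −0.06 and −0.08 (DESeq2 adjusted p = 0.422, 0.749 and 0.611), whereas that of *H19* was 0.29 (DESeq2 adjusted p = 7.96e-05). The other 5 were *Pappa* and *Pappa2*, proteases that cleave binding proteins, with *Grb10*, *Htra1* and *Irs1* (slopes −0.13 to −0.24; DESeq2 adjusted p = 0.0162 to 0.0474, and 0.238 to 0.772 without WT 5). *Htra1*, a secreted serine protease that cleaves IGF-binding proteins, was at a mean of 47.4 CPM in WT and 61.8 CPM in HET (log2 fold change 0.38, SE 0.14; edgeR adjusted p = 0.904). Among the receptor adaptors, *Irs1* had means of 65.8 and 73.9 CPM, *Irs2* of 52.7 and 58.9 CPM and *Irs4* of 2.52 and 4.49 CPM in WT and HET, with edgeR adjusted p of 0.930, 0.911 and 0.911. The exons of *Irs1* share 30.9% of their bases with *Gm9747* on the opposite strand, which had 0 counts in every embryo. *Grb10*, an imprinted adaptor that restrains the receptors, was at 307 and 300 CPM (edgeR adjusted p = 0.980), and *Igfbpl1*, a secreted relative of the binding proteins, at 724 and 744 CPM (edgeR adjusted p = 0.946). *Insrr*, an orphan relative of the insulin receptor, was the 1 tested gene of its role, with 4 to 43 counts an embryo (log2 fold change 0.53, SE 0.63; edgeR adjusted p = 0.932).

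Of the 5 genes of the list that did not pass the filter, *Ins1* had 0 counts in every embryo, which allows up to 0.0473 to 0.0722 CPM. *Ins2*, an insulin gene, had 11, 4 and 11 counts in WT 15, 16 and 41, 2 in HET 24 and 0 or 1 in each of the other 5 embryos. *Igfbp6* had 5 to 18 counts, *Igfbp1* 0 to 8 and *Igfals* 0 to 3. Counts of this size are near the depth limit and were not compared between groups.

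**Figure D4:**
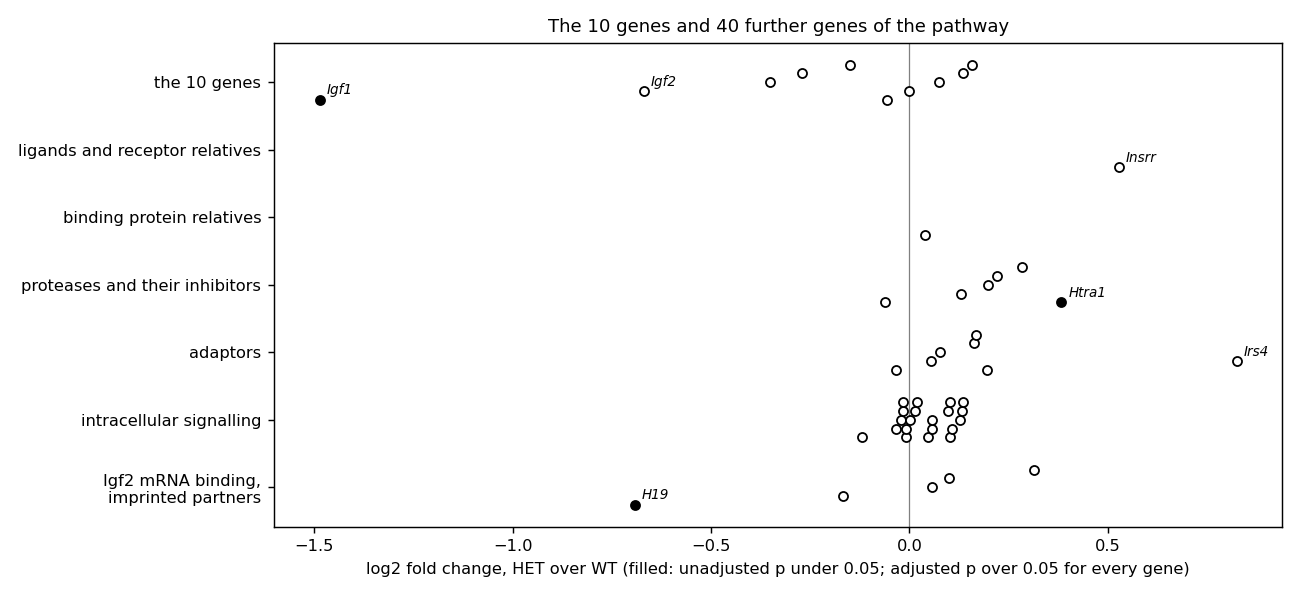
Log2 fold change of HET against WT from edgeR for the 10 members and the 40 tested genes of the pathway list, with 1 row for each role and points spread vertically for legibility. Filled points had an unadjusted p under 0.05, and no point had an adjusted p under 0.05. *Igf1* at −1.49 is the lowest point of the plot, and most points of the 20 intracellular signalling genes lie near their median of 0.03.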

How the data were processed

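Poly(A) RNA of forebrain from 5 WT and 4 HET embryos was sequenced, and a single read of each pair was used. The authors aligned reads with STAR 2.7.9a to GRCm38.p6 and assigned them to genes of GENCODE M25 with featureCounts; the deposited unit is the raw read count for 55401 genes. The handling of strand and of reads shared by genes is not given in the sources used here, which touches *Igf2* and *Irs1* most. No pair of columns was identical, and the smallest total was 42640218 counts.

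Genes were filtered with filterByExpr (minimum count 10), scaled by TMM, and tested with the quasi-likelihood F-test of edgeR 4.0.16 in R 4.3.3, with Benjamini-Hochberg adjustment over all genes at 0.05. HET was compared with WT without covariates. The slope on log10 *Ttr* CPM (prior count 1) was fitted with genotype in the model and *Ttr* left out of the tested genes. Alternatives used DESeq2 1.42.0, limma-voom (limma 3.58.1), DESeq2 size factors, no filter, covariates, subsets and leaving out each embryo; the scripts were tested on simulated counts. Coordinates and exon lengths were taken from GENCODE M21 (55141 identifiers matched) and promoters from RefSeq.

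The members, the 45 pathway genes and the 8 marker lists were chosen with earlier results of these data known. Named were all members, *Npas3*, *Ttr*, the 5 likest genes of each member (those of *Igfbp4* are not reported here), 7 preset pathway genes and any pathway gene past a threshold or at an unadjusted p under 0.05. *Insrr*, the pathway genes under the filter those called by DESeq2 alone, *Aqp4*, *Hbb-y*, *Hes5* and *Hba-a1* were named after their values were seen.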

Additional observations from a re-analysis of the deposited data

Results flagged for a closer look

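A single embryo lay far from the rest of its group, by Dixon's criterion, in 5 of 36 groups of printed embryo values. For groups not chosen by their values, chance gives about 1 in 20, or 1.8. *Npas3* was at 34.1 CPM in HET 7, against 27.8 to 28.2 CPM in the other HET embryos. *Ttr* was at 467 CPM in HET 24, against 2.47 to 11.7 CPM in the other HET embryos. In WT 5 *Hbb-y* was at 12.1 CPM, against 1.15 to 2.10 CPM in the other WT embryos, and *Hes5* at 46.6 CPM, against 13.5 to 16.3 CPM. *Aqp4* was at 2.02 CPM in WT 41, against 1.17 to 1.42 CPM in the other WT embryos. None of the 20 groups of the 10 members was among them. *Hbb-y*, *Hes5* and *Aqp4* were chosen after their values were seen, so the 5 groups cannot be set against the 1.8.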

How the results depend on the processing

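The 25 genes called in HET against WT (20 lower, 5 higher) became 86 with DESeq2 (62 lower, 24 higher), 39 with the leptomeningeal score added after the data were seen, 15 in the embryos with *Ttr* under 100 CPM alone, and 14 to 23 when each embryo was left out in turn. Members called went from 0 to 1, *Igf1*, with DESeq2, with no filter on low counts and with the leptomeningeal score, and were 0 to 1 with an embryo left out. The log2 fold change of *Igf1* stayed below 0 in all 17 alternatives, from −1.68 to −0.78, with adjusted p of 0.000469 to 0.999 and 4 past the threshold. The sign of the *Igf2r* log2 fold change turned with DESeq2 (0.0031), DESeq2 size factors (0.0031), limma-voom (0.0026) and some embryos left out (−0.098 to 0.077). It also turned for *Igf1r* (−0.11) and *Igfbp2* (0.10) at *Ttr* under 100 CPM, and for *Insr* without WT 5 (−0.14 to 0.032 over the 9 fits); none of these members was past the threshold.

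The 393 genes that went with *Ttr* (350 rising, 43 falling) became 869 with DESeq2 (541 rising, 328 falling), 739 with no filter, and 119 to 681 with an embryo left out. Members called went from 2 to 4 with DESeq2, to 1 in the WT embryos alone, and to 0 to 3 with an embryo left out. Without WT 5 the slopes turned for *Insr* (−0.072 to 0.013 over the 9 fits) and *Igfbp3* (−0.049 to 0.21). The slopes of *Igf2* (0.28 to 0.38) and *Igfbp2* (0.16 to 0.22) kept their sign in all 16 alternatives, with adjusted p of 6.68e-05 to 0.172 and 0.000137 to 0.178. Without WT 5, a fit added after the data were seen, the 8 pathway genes that DESeq2 called as falling with *Ttr* became 0. The causes of these shifts were not tested. No paired analysis was possible because nothing in the sources used here pairs the WT and HET embryos or assigns them to litters. Depth limits *Ins1*, *Ins2* and the binding proteins that did not pass the filter.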
